A study of Homo sapiens with 14 samples.

Results

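The E2F transcription factors, their DNA-binding partner DP1 and the RB family of pocket proteins were followed at the transcript level through 48 h of TAp73β induction in a liver cancer cell line. The 10 genes were E2F1, E2F2, E2F3, E2F5, E2F7, E2F8, TFDP1, RB1, RBL1 and RBL2. They were chosen by symbol in the annotation of the array, out of 19775 genes that it named, and 23 probe sets named 1 of them and no other gene. Where a gene had several probe sets, the brightest on average stood for it, and the other probe sets are given beside it.

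Hep3BTAp73β cells were analysed on 14 Affymetrix arrays, each hybridised with total RNA of 1 culture. At 12 h and at 24 h there were 2 untreated (Dox−) and 2 doxycycline-treated (Dox+) cultures, and at 48 h there were 3 of each. Doxycycline was given at 1 µg/ml and switches on TAp73β, 1 of the p73 isoforms that carry the transactivation domain. All cultures, Dox− included, carried the same constructs, a doxycycline-inducible human TAp73β cDNA and a tetracycline repressor. The parental Hep3B line comes from a hepatocellular carcinoma, and it is known to make no functional RB protein. Resistant colonies were picked after selection with blasticidin and G418, and how many of them gave rise to the arrayed cells is not given in the sources used here. No array held doxycycline-treated cells without the TAp73β construct, so that effects of doxycycline itself and of TAp73β cannot be told apart. The labels name DMEM as the growth medium and the methods name RPMI. The labels call the replicates biological, and no batch is named in them.

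TP73 was measured first, as a check of the induction. Its level lay between 7.89 and 8.30 on the 7 Dox+ arrays and between 5.82 and 6.08 on the 7 Dox− arrays (log2 RMA values), without overlap. All 8 hepatocellular markers, among them ALB, AFP and APOB, were above the level of the median gene, and their summed level was 92.8 to 94.5 on Dox− arrays and 91.1 to 93.1 on Dox+ arrays. Of the markers of other cell types, 1 of 3 for leukocytes, 1 of 4 for endothelium and 1 of 4 for stroma were above the median gene, and none of these was beyond the 60.4 percentile. The leukocyte markers ran from the 6.5 percentile (PTPRC) to the 50.8 (CD14). Those of endothelium ran from 8.09 (CDH5) to 51.5 (PECAM1), and those of stroma from 36.8 (COL1A2) to 60.4 (COL1A1). The part of these marker levels in the results was not tested. Array medians ran from 5.15 to 5.28, and the lowest correlation between any pair of arrays was 0.979.

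E2F factors bind promoters of genes for DNA replication and cell cycle progression. E2F1, E2F2 and E2F3 are the activators, E2F5 acts mostly as a repressor together with pocket proteins, and E2F7 and E2F8 are atypical repressors that bind DNA without a DP partner. The pocket proteins RB (RB1), p107 (RBL1) and p130 (RBL2) hold E2F factors in a repressive state until cyclin-dependent kinases phosphorylate them, which p21 and other inhibitors prevent. Several E2F and RB family genes are themselves E2F targets.

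Because several of these genes are E2F targets, their promoters were read first. RefSeq promoter windows of build GRCh38.p14, from 250 bases before to 50 bases after a start, were held for 8 of the 10 genes. They were searched on both strands for the E2F consensus, spelled out as TTTCCCGC, TTTCGCGC, TTTGCCGC and TTTGGCGC. These genes had 10 windows, and it was found in 5 of them, each of a different gene, against 3.31% of all 35116 windows. The matching stretches are shown here, read 5′ to 3′ on the strand of the gene and with each match in capitals. They lie upstream of the start in E2F1 (chr20:33686386-33686430, minus strand), E2F2 (chr1:23531256-23531287, minus strand), E2F3 (chr6:20401814-20401845, plus strand), RBL1 (chr20:37095998-37096035, minus strand) and TFDP1 (chr13:113584621-113584652, plus strand).
E2F1: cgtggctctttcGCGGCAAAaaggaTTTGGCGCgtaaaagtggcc
E2F2: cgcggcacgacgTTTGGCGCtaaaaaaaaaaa
E2F3: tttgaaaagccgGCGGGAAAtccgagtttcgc
RBL1: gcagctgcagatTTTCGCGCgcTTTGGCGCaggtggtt
TFDP1: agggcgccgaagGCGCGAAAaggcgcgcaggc

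E2F1 and RBL1 each held 2 matches within the last 45 bases before the start. The windows of E2F7, RB1 and RBL2 held none of these 4 words. The cell cycle homology region, searched as TTTGAA, was in 2 of the 10 windows, 1 of E2F3 and 1 of RBL2, against 15.2% of all windows. The CCAAT box was in 4 of the 10 windows, with 4 copies each in windows of E2F3 and E2F7, 3 in that of E2F1 and 1 in a window of RBL2, against 34.6% of all windows. No match of one motif overlapped a match of another, and a match is a stretch of letters and not a site of binding.

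The family did not move in one direction. At 48 h, 7 of the 10 genes passed the test (limma, Benjamini-Hochberg adjusted p under 0.05 over all genes), when 24.2% of all genes did. The 3 that rose were E2F7, RB1 and RBL2, against 11.3% of all genes that rose, and the 4 that fell were E2F2, E2F3, E2F5 and E2F8, against 12.9% that fell. E2F7 was up-regulated 1.62-fold and E2F8 was down-regulated 1.80-fold, so that the pair of atypical repressors changed in opposite directions. The calls of RB1, RBL2 and E2F3 were each lost when single arrays were left out, while those of E2F2, E2F5, E2F7 and E2F8 stood without any 1 of the 6 arrays.

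At 24 h, 3 genes passed, when 5.83% of all genes did. E2F7 rose (3.01% of all genes rose), and E2F5 and E2F8 fell (2.81% fell). At 12 h none of the 10 passed, when 0.668% of all genes did. At an unadjusted p under 0.05 there were 2 at 12 h, E2F7 and RB1, and none passed by an ordinary t-test with the same adjustment. In order of time, the median log2 fold change of the 10 genes was 0.10, −0.15 and −0.11, beside −0.04, 0.02 and −0.02 for all genes. Dox+ and Dox− arrays of 12 h did not overlap for 4 genes (2 higher, 2 lower), when the same was true of 46.8% of all genes (19.3% higher, 27.6% lower). For the arrays of 24 h it was 7 genes (3 higher, 4 lower) against 50.3% (26.6% and 23.7%). For those of 48 h it was 8 genes (3 higher, 5 lower) against 39.3% (17.4% and 21.9%). In bulk RNA, fewer cells that make a transcript and less transcript per cell cannot be told apart.

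**Figure D1:**
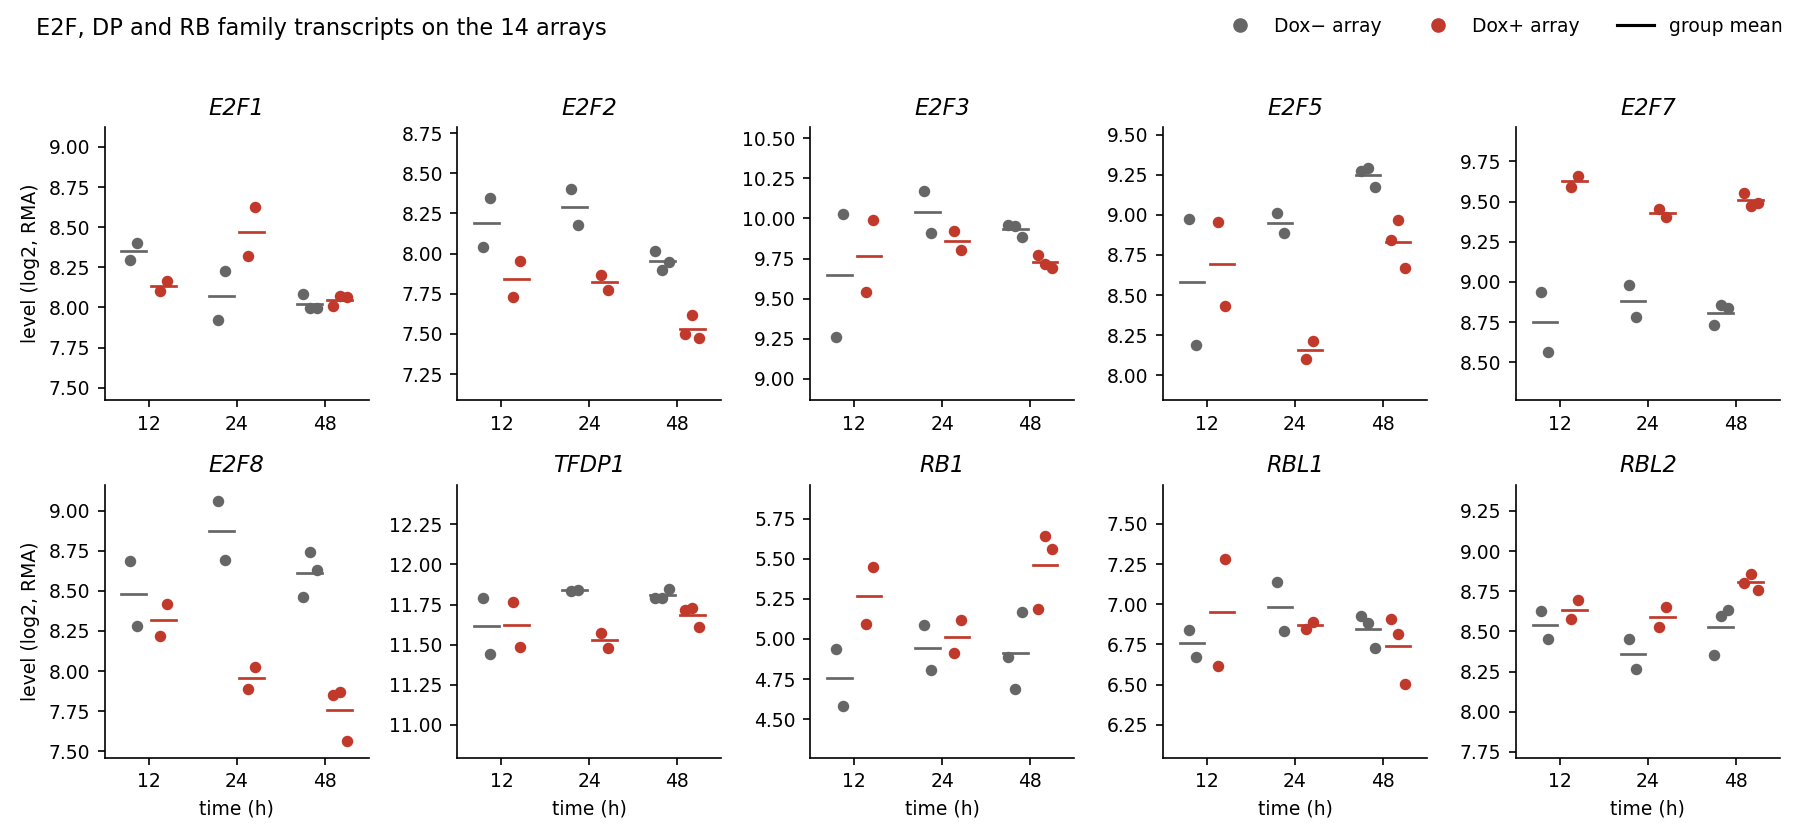
Level of each of the 10 genes (log2 RMA value, vertical axis) on the 14 arrays by time in hours (horizontal axis), with Dox− arrays in grey, Dox+ arrays in red and a line at each group mean. Every panel spans the same range of log2 units around its own centre. E2F7 was higher on all Dox+ arrays at each time, E2F8 was lower at 24 h and 48 h, and E2F1 was nearly the same at 48 h.

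E2F7, an atypical repressor, stood at 9.59 and 9.66 on the Dox+ arrays of 12 h and at 8.94 and 8.57 on the Dox− arrays (probe set 228033_at). At 24 h its levels were 9.45 and 9.41 with doxycycline and 8.98 and 8.78 without. At 48 h they were 9.56, 9.47 and 9.49 with doxycycline and 8.73, 8.86 and 8.84 without. All 7 Dox+ arrays were above all 7 Dox− arrays. The 12 h log2 fold change was 0.87 ± 0.17 (SE), which missed the threshold (limma, adjusted p = 0.0880). E2F7 rose by 0.55 ± 0.13 on the log2 scale after 24 h (adjusted p = 0.0480) and by 0.70 ± 0.06 after 48 h (adjusted p = 5.65e-05). In a single fit of all 14 arrays it also passed at 12 h (adjusted p = 4.54e-04). At 24 h the call was lost without any 1 of the 4 arrays, with adjusted p between 0.0643 and 0.197 and a log2 fold change between 0.45 and 0.65.

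On the arrays of 12 h E2F7 was already higher than in untreated cells without overlap, when the same was true of 19.3% of all genes. Its Dox+ group means were 9.63 for 12 h, 9.51 for 48 h and 9.43 for 24 h, followed by 8.88, 8.81 and 8.75 in Dox− cells of 24 h, 48 h and 12 h. The 3 Dox+ groups were apart from one another and from all Dox− groups, whose ranges overlapped. Between 48 h and 12 h the log2 fold change differed by −0.18 ± 0.16 (SE; limma interaction, adjusted p = 0.552).

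E2F8, the other atypical repressor, stood at 8.22 and 8.42 on the Dox+ arrays of 12 h against 8.68 and 8.28 on the Dox− arrays (219990_at). These overlapped, and the log2 fold change was −0.17 (limma, adjusted p = 0.708). At 24 h E2F8 was at 7.89 and 8.03 with doxycycline and at 9.06 and 8.69 without. At 48 h it was at 7.85, 7.87 and 7.56 with doxycycline and at 8.46, 8.74 and 8.63 without. The groups no longer overlapped at either time, and the lowest value of all 14 was on a Dox+ array of 48 h. E2F8 fell by 0.91 ± 0.16 on the log2 scale after 24 h (adjusted p = 0.0123) and by 0.85 ± 0.10 after 48 h (95% interval −1.08 to −0.62, adjusted p = 3.26e-04). Without the first Dox− array of 24 h, the call of that time was lost (log2 fold change −0.73, adjusted p = 0.0527).

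The Dox+ groups of E2F8 stepped down with time, with means of 8.32, 7.96 and 7.76 in order, and the ranges of neighbours did not overlap. Within Dox+ cells E2F8 was lower at 48 h than at 12 h by −0.56 ± 0.12 on the log2 scale (limma, adjusted p = 0.0328), when 2.53% of all genes were lower. That call was lost without the second Dox+ array of 12 h or without any 1 of the 3 Dox+ arrays of 48 h, with adjusted p between 0.0753 and 0.103. Compared with 12 h, the log2 fold change of 48 h differed by −0.68 ± 0.21, which missed the threshold (interaction, adjusted p = 0.0853).

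The 3 genes whose level was most like that of E2F8 over the 14 arrays were RAD18 (Pearson r = 0.987), SKA3 (0.974) and POLR1B (0.971). RAD18 is a ubiquitin ligase of DNA damage tolerance, SKA3 is part of the kinetochore-microtubule attachment complex, and POLR1B is a subunit of RNA polymerase I. At 48 h their log2 fold changes were −0.67, −0.77 and −0.53. The arrays share treatment and time, so that these values describe likeness over 6 groups of cultures.

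Among the activators, E2F2 was lower with doxycycline at each time by its brightest probe set. Its levels were 7.73 and 7.95 against 8.04 and 8.35 at 12 h, and 7.87 and 7.78 against 8.40 and 8.18 at 24 h, with Dox+ given first (228361_at). At 48 h they were 7.50, 7.62 and 7.47 with doxycycline and 8.02, 7.90 and 7.95 without. The groups were apart at all 3 times. Neither the 12 h log2 fold change of −0.35 (limma, adjusted p = 0.416) nor that of 24 h, −0.47 (adjusted p = 0.0849), passed. In a single fit of all 14 arrays and with dim genes left out, it passed at 24 h (adjusted p = 0.0239 and 0.0412). E2F2 fell by 0.43 ± 0.07 on the log2 scale at 48 h (95% interval −0.57 to −0.28, adjusted p = 0.00139). Its other probe sets gave 0.20 (207042_at) and −0.10 (235582_at) at 48 h, and neither passed. In the same order they gave 0.04 and −0.73 at 12 h. At 24 h both went the other way from the brightest, with 0.40 and 0.25, and neither passed at these times. These 2 probe sets were dim, with mean levels of 4.78 and 5.12, below the lowest array median, 5.15.

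E2F1, the best known activator, stood at 8.10 and 8.17 on the Dox+ arrays of 12 h, below the Dox− arrays at 8.30 and 8.40 (204947_at). At 24 h the order was turned, with 8.32 and 8.63 on Dox+ arrays and 7.92 and 8.22 on Dox− arrays. At 48 h all 6 arrays were between 7.99 and 8.08. Log2 fold changes were −0.22 (limma, adjusted p = 0.538), 0.40 (adjusted p = 0.205) and 0.03 (95% interval −0.11 to 0.16, adjusted p = 0.818) at the 3 times. It passed at 24 h in a single fit of all 14 arrays (adjusted p = 0.0464). In Dox− cells E2F1 itself changed with time and was lower at 48 h than at 12 h by −0.33 ± 0.09 (adjusted p = 0.0384), when 12.9% of all genes were lower. That call was lost without the second Dox− array of 12 h or any 1 of the 3 Dox− arrays of 48 h, with adjusted p between 0.0545 and 0.135.

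E2F3, the other activator, was spread widely at 12 h, with Dox− arrays at 9.26 and 10.03 and Dox+ arrays at 9.54 and 9.99 (203693_s_at). At 48 h the Dox+ arrays were at 9.77, 9.72 and 9.69 and the Dox− arrays at 9.96, 9.95 and 9.89, which did not overlap. E2F3 fell by 0.21 ± 0.06 on the log2 scale at 48 h (limma, adjusted p = 0.0295). The call was lost without Dox− array 1 or 2 or Dox+ array 2 or 3 (adjusted p 0.0671 to 0.0965), with the probe set of largest interquartile range (0.0511), with each probe set taken alone (0.0528), after quantile normalization (0.0530) and in a single fit of all 14 arrays (0.532). Its second probe set (203692_s_at) gave −0.19 (adjusted p = 0.0985).

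E2F5, a repressor that works with p107 and p130, overlapped at 12 h, with Dox+ arrays at 8.96 and 8.43 and Dox− arrays at 8.97 and 8.19 (221586_s_at). At 24 h it stood at 8.10 and 8.21 with doxycycline and at 9.01 and 8.88 without. At 48 h it stood at 8.84, 8.97 and 8.67 with doxycycline and at 9.27, 9.29 and 9.17 without. The groups were apart at both later times. E2F5 fell by 0.79 ± 0.13 on the log2 scale after 24 h (limma, adjusted p = 0.0110). After 48 h it fell by 0.42 ± 0.08 (adjusted p = 0.00553). The 24 h call was lost without the first Dox− array (log2 fold change −0.73, adjusted p = 0.0509), and the 48 h call in a single fit of all 14 arrays (adjusted p = 0.129) and by the ordinary t-test (0.0604).

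E2F5 also differed between times in untreated cells. Its Dox− means of the 3 times were, in order, 8.58, 8.95 and 9.24, and the rise from 12 h to 48 h was 0.66 ± 0.20 on the log2 scale (limma, adjusted p = 0.0478), when 10.7% of all genes rose. The 2 Dox− arrays of 12 h differed widely, and the value was 0.27 without the second (adjusted p = 0.0616) and 1.05 without the first (adjusted p = 0.00163). The call was also lost after quantile normalization (0.49, adjusted p = 0.122) and without any 1 of the 3 Dox− arrays of 48 h (adjusted p 0.116 to 0.141). In Dox+ cells the same difference was 0.13 ± 0.16 (adjusted p = 0.662). Its dimmer probe set (222051_s_at) gave 0.07 at 48 h and did not pass.

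TFDP1 encodes DP1, the partner with which E2F1 to E2F5 bind DNA. With doxycycline it stood at 11.58 and 11.48 at 24 h, and both Dox− arrays were at 11.84 (212330_at). At 48 h the Dox+ arrays were at 11.72, 11.73 and 11.61 and the Dox− arrays at 11.79, 11.79 and 11.85, without overlap. TFDP1 gave log2 fold changes of −0.31 for 24 h (limma, adjusted p = 0.208) and −0.12 for 48 h (95% interval −0.26 to 0.01, adjusted p = 0.186), which did not pass. With the trend and robust options of eBayes it passed at both times (adjusted p = 0.0167 and 0.0363). At 24 h its probe set 242939_at gave 0.23 while 204147_s_at gave −0.46, and neither passed.

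RB1 encodes the retinoblastoma protein. On the Dox+ arrays it was at 5.10 and 5.45 at 12 h, against 4.94 and 4.58 on the Dox− arrays (203132_at). At 24 h it was at 4.91 and 5.12 against 5.09 and 4.81, which overlapped. At 48 h the Dox+ arrays were at 5.19, 5.64 and 5.56 and the Dox− arrays at 4.89, 4.69 and 5.17. The highest Dox− array of 48 h was thus just under the lowest Dox+ array. RB1 rose at 48 h by 0.55 ± 0.14 on the log2 scale (limma, adjusted p = 0.0202), while its log2 fold changes of 0.51 for 12 h (adjusted p = 0.325) and 0.07 for 24 h (adjusted p = 0.844) did not pass. The 48 h call was lost without Dox− array 1 or 2 or Dox+ array 2 or 3 (log2 fold change 0.44 to 0.54, adjusted p 0.0592 to 0.0726) and by the ordinary t-test (0.156). This probe set lay near the middle of all probe sets (47.8 percentile), the other (211540_s_at) was dimmer and gave −0.06 at 48 h, and RMA values carry no call of presence.

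RBL2 encodes p130, the pocket protein of resting cells that joins E2F4 or E2F5 and the MuvB core in the DREAM repressor complex. At 48 h it was at 8.80, 8.86 and 8.76 with doxycycline and at 8.35, 8.60 and 8.64 without, and the groups were apart (212331_at). The Dox+ group of 48 h was also the highest of the 6 groups and apart from the next. RBL2 rose at 48 h by 0.28 ± 0.08 on the log2 scale (limma, adjusted p = 0.0365), after 0.10 at 12 h and 0.23 at 24 h, which did not pass. The call stood without Dox− array 3 and was lost without any other 1 array (log2 fold change 0.19 to 0.31, adjusted p 0.0528 to 0.111). It was also lost in a single fit of all 14 arrays (0.0759), with the probe set of largest interquartile range (0.887), with each probe set taken alone (0.0521) and by the ordinary t-test (0.139). The other probe set (212332_at) gave −0.39 at 24 h and 0.02 at 48 h (limma over all probe sets, adjusted p = 0.193 and 0.891).

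RBL1 encodes p107, the pocket protein of cycling cells. Its levels overlapped at every time, from 6.50 to 7.28 over all 14 arrays (205296_at). At 48 h they were 6.91, 6.81 and 6.50 with doxycycline and 6.93, 6.89 and 6.73 without. Its log2 fold changes were 0.19, −0.12 and −0.10 in order of time, the last with a 95% interval of −0.34 to 0.14 (limma, adjusted p = 0.557). Its 3 other probe sets gave between −0.20 and 0.12 at 48 h, and none passed.

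**Figure D2:**
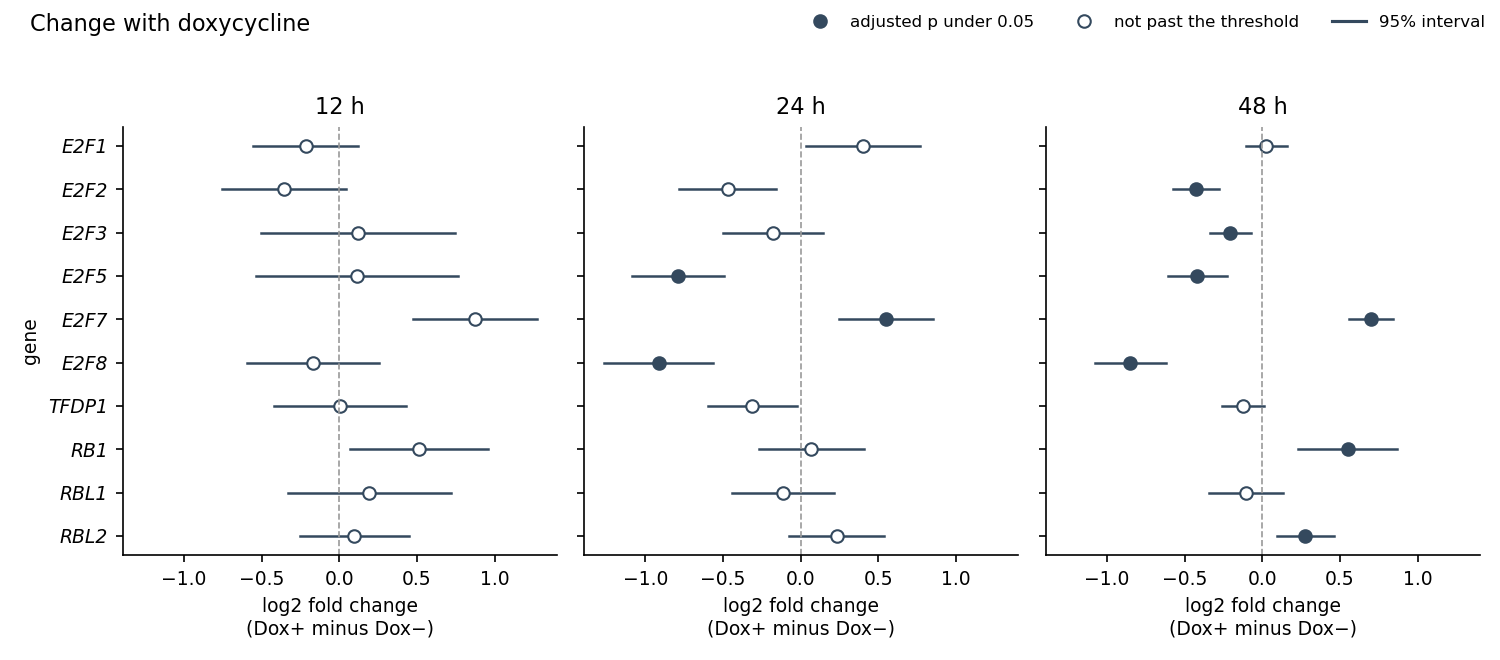
Log2 fold change, Dox+ minus Dox− (horizontal axis), of each gene (vertical axis) at 12, 24 and 48 h, with the 95% interval of the limma fit as a line. Filled points passed an adjusted p under 0.05. No gene passed at 12 h, and at 48 h E2F7 lay at 0.70 and E2F8 at −0.85.

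Differences between time points were tested for all 10 genes in a single fit of the 14 arrays. None passed for 48 h against 12 h, when 3.2% of all genes did, and none for 48 h against 24 h, when 0.678% did (limma interaction). At an unadjusted p under 0.05 there was 1 in each, E2F8 against 12 h and E2F1 against 24 h. For E2F1 the difference of the 48 h and 24 h values was −0.38 ± 0.16 (adjusted p = 0.349). Of the changes with time within a treatment, none of the 10 genes rose in Dox+ cells, when 4.99% of all genes did.

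**Figure D3:**
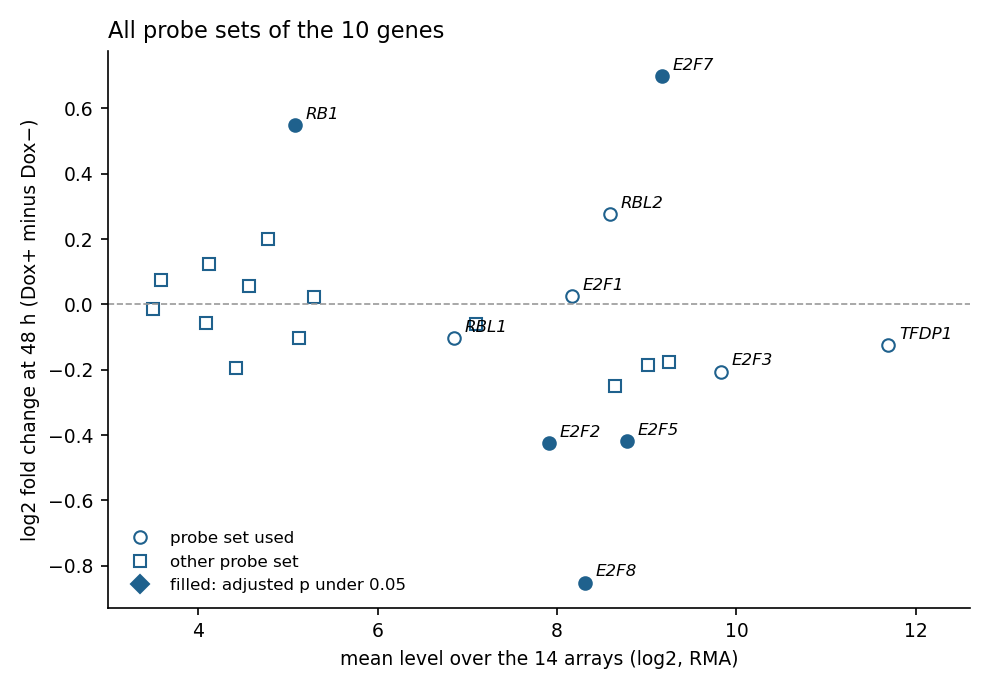
Log2 fold change at 48 h (vertical axis) against mean level over the 14 arrays (log2 RMA value, horizontal axis) for the 23 probe sets of the 10 genes. Circles are the probe sets used, squares are the others, and filled symbols passed an adjusted p under 0.05 over all probe sets. The 5 filled symbols are all circles, for E2F2, E2F5, E2F7, E2F8 and RB1.

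With every probe set tested on its own, the main probe sets of E2F2, E2F5, E2F7, E2F8 and RB1 passed at 48 h and none of the 13 others did. E2F8 had a single probe set. The other probe sets of E2F5, E2F7 and RB1 had mean levels of 3.59, 4.57 and 4.09, below the median of every array. The main probe set of RB1, with a mean level of 5.08, was also below the lowest array median, 5.15. The second probe set of E2F1 (2028_s_at) gave −0.06 at 48 h.

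The rest of the pathway is given by lists of textbook members, which share some genes. At 48 h the genes downstream of E2F were mostly lower or did not pass. Of 29 E2F target genes of S phase, 16 fell and 2 rose, with a median log2 fold change of −0.22 beside −0.02 for all genes. Over all genes of the arrays 12.9% fell and 11.3% rose at that time, and these shares are the background of every list here. ORC1, a subunit of the origin recognition complex, fell by 0.72 on the log2 scale, CDC45 of the replicative helicase by 0.67, and thymidine kinase TK1 by 0.50. The 2 that rose, named after their values were seen, were the cyclin E genes CCNE1 and CCNE2, each with a log2 fold change of 0.39. At 24 h 7 of the 29 fell (2.81% of all genes) and none rose, and at 12 h none passed.

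CDC45 was among the targets that fell most. On Dox+ arrays of 48 h it was at 8.11, 8.21 and 7.99, and on Dox− arrays at 8.79, 8.78 and 8.74. The arrays did not overlap. Of 6 proliferation markers 5 fell at 48 h, beside 12.9% of all genes, with a median of −0.54. The polo-like kinase PLK1 fell by 0.77 on the log2 scale, the survivin gene BIRC5 by 0.66, cyclin B1 (CCNB1) by 0.61 and Aurora A (AURKA) by 0.47. The share of cells in each cycle phase was not measured on these arrays, and its part in these values was not tested.

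The MuvB core is the assembly that p130 turns into a repressor and MYBL2 into an activator, and the list here holds the core with MYBL2 and FOXM1. Of the 7 genes of this list 5 fell at 48 h and none rose, with a median of −0.32, beside 12.9% and 11.3% of all genes. MYBL2 stood at 8.35, 8.24 and 8.07 with doxycycline and at 8.92, 8.94 and 8.90 without at 48 h, a fall by 0.70 ± 0.08 on the log2 scale (limma, adjusted p = 2.11e-04). FOXM1, the activator of late cycle genes, fell by 0.63, LIN9 by 0.54 and LIN54, which contacts DNA, by 0.32. The LIN9 and FOXM1 probe sets are of a kind (_x_at) that can bind related transcripts, and 3 genes of this list fell without such probe sets. FOXM1 had no other probe set and could not be tested that way. The other probe sets of LIN9 were dim, with mean levels of 3.74 and 3.70, and did not pass. At 24 h 2 of the 7 fell, beside 2.81% of all genes.

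Upstream, the list of cyclins and kinases that phosphorylate RB proteins, which also holds the phosphatase CDC25A, went both ways at 48 h. Of its 11 genes 5 were higher (11.3% of all genes) and 3 lower (12.9%), with a median of −0.04. CDC25A was 1 of the 3 lower genes, with a log2 fold change of −0.43. Cyclin D2 (CCND2) was at 7.58, 7.74 and 7.78 with doxycycline, and its highest Dox− array was at 6.30. CCND2 rose by 1.54 on the log2 scale, and CCND3, another D-type cyclin, rose by 0.45. CCNA2 (cyclin A2) fell by 0.69 and CDK6, the partner of D cyclins, by 0.45. The 3 dimmer probe sets of CCND2 gave 0.35, −0.13 and −0.02, and none passed.

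Of 6 measured inhibitors of these kinases, 1 rose (11.3% of all genes) and 2 fell (12.9%) at 48 h. CDKN1A, which encodes p21, was at 12.09, 12.09 and 12.29 with doxycycline and at 9.35, 9.44 and 9.37 without, and it was 6.82-fold higher. It was also the only inhibitor that passed at 12 h and 24 h, with log2 fold changes of 2.26 and 2.37. CDKN2A, the p16 and ARF locus, fell by 0.46 on the log2 scale at 48 h and CDKN1B, which encodes p27, by 0.43. Of 9 RB-bound corepressors 1 fell, the histone methyltransferase SUV39H1 (by 0.49), near the background of 12.9%, and the median was −0.04. Of the 4 E2F and DP genes outside the 10, TFDP2 fell by 0.34, while E2F4 (−0.08), E2F6 (−0.00063) and TFDP3 (−0.10) did not pass.

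**Figure D4:**
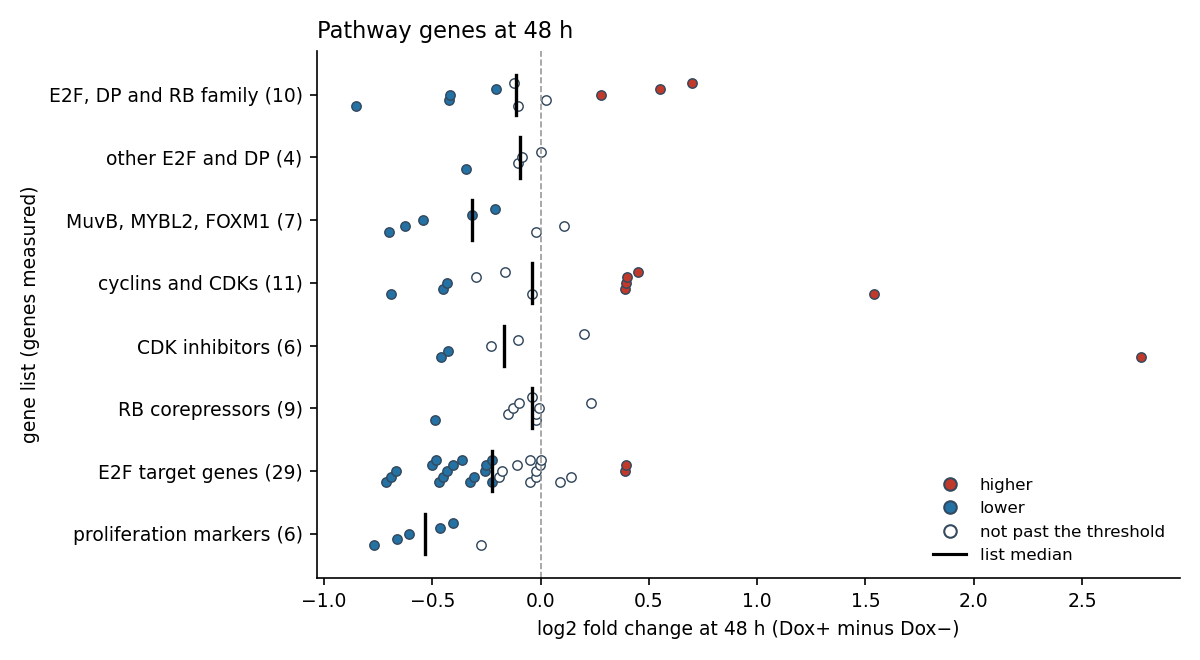
Log2 fold change at 48 h, Dox+ minus Dox− (horizontal axis), of the genes of each list (vertical axis, with the number of genes measured). Red points rose, blue points fell, open points did not pass an adjusted p under 0.05 over all genes, and the bar is the list's median. The inhibitor list holds the largest value drawn, CDKN1A at 2.77, and the proliferation markers have the lowest median, −0.54.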

How the data were processed

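The files hold deposited log2 intensities of Affymetrix Human Genome U133 Plus 2.0 arrays, 1 per probe set and array. The authors obtained them with RMA, which subtracts background, matches the arrays' distributions and summarizes each probe set, per the labels in R 3.5.1. Arrays judged to be outliers had been removed, according to the methods. Genome build and depth do not apply, and 14 arrays limit the precision.

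After 62 control probe sets were left out, 54613 remained, of which 41091 named 1 gene, 1801 several and 11721 none in the platform annotation, and 41037 names were updated by Entrez identifier. The probe set with the highest mean stood for a gene (19775 genes). Dox+ and Dox− arrays of each time were compared with limma 3.58.1 in R 4.3.3 (lmFit, eBayes), with Benjamini-Hochberg adjustment over all genes and a threshold of 0.05. Differences between times came from 1 fit of all 14 arrays, with array weights as a second form. Intervals are 95%. Groups came from the labels, and replicate numbers were not used as a block. The scripts were tested on simulated data. Motifs were searched in Python 3.11.15. The figures came from matplotlib 3.10.9.

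The 10 genes, the lists and the tests were chosen with earlier results of these data known. The text names all 10, TP73, from each list at most 4 genes that passed at 48 h and changed most, and the 3 genes most like the member with the largest change. E2F4, E2F6, TFDP3, CCNE1, CCNE2 and CDC25A were named outside this rule, after their values were seen. Alternatives were 1 fit of all arrays, dim genes left out, another probe set, each probe set alone, no _x_at probe sets, quantile normalization, the replicate block, trend and robust options in eBayes, an ordinary t-test (no test is named for the arrays in the methods beyond class comparison) and leaving out each array. A few genes of the lists were not analysed here.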

Additional observations from a re-analysis of the deposited data

Results flagged for a closer look

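E2F1 was flagged because its arrays were apart at 12 h and at 24 h in opposite directions. The log2 fold change was −0.22 at 12 h, where both Dox+ arrays were below both Dox− arrays, and 0.40 at 24 h, where both were above. Neither passed limma's test (adjusted p = 0.538 and 0.205), and the difference between 12 h and 24 h was not tested. The second probe set gave −0.42 and 0.07 at these times. About as many genes had arrays apart at 12 h (46.8%) and at 24 h (50.3%) as did not. Of all genes, 27.6% were apart and lower at 12 h, and 26.6% were apart and higher at 24 h. The share with both was not counted, so E2F1 cannot be said to differ from other genes in this.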

How the results depend on the processing

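E2F7 and E2F8 at 48 h passed in 15 of 15 alternatives, with log2 fold changes of 0.66 to 0.72 and −0.93 to −0.75. E2F2 passed in 14 of 15 and was lost with the probe set of largest interquartile range (−0.10, adjusted p = 0.399). E2F5 passed in 13 of 15, RB1 in 9 of 14, E2F3 in 7 of 15 and RBL2 in 6 of 15. Of 607 values of the 10 genes under an alternative, 509 kept direction and side of the threshold, 50 were no longer past it, 12 newly passed and 36 changed sign, all of them values that had not passed. The causes were not tested. RMA values carry no call of presence, which limits what the dimmer second probe sets can show.

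Counts moved by over 1.5 times as follows, with higher before lower. In 1 fit of all 14 arrays, members called were 1 higher at 12 h, 2 higher at 24 h and 2 lower at 48 h, genes were 1040 and 643, 1106 and 1202, and 1437 and 1361 in order of time, and the lower genes were 0 of the other E2F and DP genes and 3 of the MuvB list. With dim genes left out, 969 genes were lower at 24 h and 5 genes of the cyclin and kinase list at 48 h. With the probe set of largest interquartile range, 83 genes were higher at 12 h and 1046 lower at 24 h, 0 members were higher at 24 h and 2 lower at 48 h, and 2 other E2F and DP genes were lower. With every probe set alone, 49 and 1 were called at 12 h and 0 members were higher at 24 h. Without _x_at probe sets, which left none for FOXM1, 3 genes of the MuvB list were lower. After quantile normalization 8 genes were lower at 12 h and 344 at 24 h. For 48 h against 12 h, 0 members were then higher within Dox− cells and 2 were lower within Dox+ cells. With trend and robust options 9 genes were lower at 12 h, 946 and 1274 were called at 24 h, and 5 genes of the cyclin and kinase list and 2 corepressors were lower. By the ordinary t-test 0 genes passed at 12 h and 24 h in either direction and 0 members at 24 h, while at 48 h 1 member and 1 E2F target were higher and 3 MuvB genes, 0 corepressors and 3 proliferation markers were lower.

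Deviations of same-numbered arrays correlated by 0.255 at 12 h, −0.11 at 24 h and 0.109, 0.0892 and 0.102 at 48 h, where each Dox− array correlated best with its own number. With the replicate block, 1 member was higher at 12 h (E2F7, adjusted p = 0.0273) and 0 at 24 h (E2F7, adjusted p = 0.0525), and genes called were 385 and 84, 641 and 561, and 2223 and 2496 in order of time. A crossed block at 24 h, chosen after seeing the data, gave 778 and 815 genes.

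Leaving out 1 array of 12 h gave 4 to 153 higher and 0 to 74 lower genes. For 24 h these were 402 to 488 and 168 to 375, and for 48 h 1790 to 1976 and 1916 to 2295. Members called at 24 h were 0 higher in each case and 0 to 2 lower, 0 without the first Dox− array. At 48 h they were 1 to 3 higher, and 1 without Dox− array 1 or 2 or Dox+ array 2 or 3, and 3 to 4 lower. From 12 h to 48 h they were 0 to 2 higher and 0 to 2 lower within Dox− and 0 to 2 lower within Dox+.

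Values that changed sign had not passed. With the probe set of largest interquartile range they were RBL1 (−0.25) and TFDP1 (−0.057) at 12 h, E2F2 (0.25) and RBL2 (−0.39) at 24 h and E2F1 (−0.059) at 48 h. After quantile normalization they were TFDP1 at 12 h (−0.017), the differences of 48 h against 12 h for E2F2 (0.0061) and RB1 (−0.066) and against 24 h for E2F2 (−0.0088), RBL1 (−0.031) and RBL2 (−0.0071), and the changes with time in Dox− cells of E2F7 (−0.11), E2F8 (−0.048) and RBL1 (−0.00034). Ranges over single arrays left out that crossed 0 were E2F3 (−0.26 to 0.50), E2F5 (−0.28 to 0.50), E2F8 (−0.37 to 0.034), RBL1 (−0.14 to 0.53), TFDP1 (−0.17 to 0.18) at 12 h, RB1 (−0.071 to 0.21), RBL1 (−0.27 to 0.037) at 24 h, RBL1 (−0.19 to 0.015) at 48 h, E2F3 (−0.10 to 0.67), E2F7 (−0.13 to 0.24), E2F8 (−0.071 to 0.33), RB1 (−0.024 to 0.33), RBL2 (−0.10 to 0.079) with time in Dox− cells and E2F3 (−0.26 to 0.18), E2F5 (−0.13 to 0.39), RBL1 (−0.54 to 0.12), TFDP1 (−0.081 to 0.20) with time in Dox+ cells.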
